A study of Mus musculus with 8 samples.

Results

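The genes examined were the 10 mouse genes that encode the TGF-beta ligands (Tgfb1, Tgfb2 and Tgfb3), their receptors (Tgfbr1, Tgfbr2 and Tgfbr3) and the latent TGF-beta binding proteins (Ltbp1, Ltbp2, Ltbp3 and Ltbp4). They were chosen by name, and all 10 were found among the 53465 genes of the count table. RNA had been sequenced from heart ventricles at embryonic day 15.5 (E15.5), in 4 libraries labelled WT and 4 labelled Flox, whose genotype is given as Nrg-1flox;Cdh5-CreERT2. In that line, tamoxifen activates a Cre recombinase that is driven by the promoter of Cdh5, a gene of endothelial and endocardial cells, to delete Nrg1 (neuregulin-1) there. The comparison asked how the ventricle responds to loss of this growth factor from its endothelium. The labels give neither the strain, the day or dose of tamoxifen, nor whether the WT embryos carried a floxed allele or Cre or received tamoxifen. They state 1 ventricle per library.

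TGF-beta is secreted in a latent form. Its precursor is cut by the protease furin, the propeptide stays wrapped around the growth factor, and an LTBP bonded to the propeptide tethers the complex to fibrillin and elastic fibres. Integrins that contain the alpha-v chain, among other activators, release the ligand, which is bound by TGFBR2 and then signals through the kinase TGFBR1 to SMAD2 and SMAD3. TGFBR3 (betaglycan) is a co-receptor that presents the ligands, TGF-beta 2 in particular. In the embryonic heart the pathway is known for its part in forming the valve cushions, the epicardium-derived cells and the walls of the great vessels.

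None of the 10 genes passed an FDR of 0.05 between the groups in edgeR's quasi-likelihood test, against 0.526% of all 15388 genes tested (0.214% lower and 0.312% higher in labelled Flox). The 2 with an unadjusted p under 0.05 were both lower in the libraries labelled Flox, against 10.5% of all genes tested with such a p (5.41% lower and 5.13% higher). They were the signalling receptor Tgfbr2, whose mean was 90.4 ± 1.31 CPM over the WT libraries against 81.8 ± 2.37 in those labelled Flox (SD, n = 4 each), and the latent binder Ltbp2, with 34.3 ± 4.35 against 27.9 ± 2.99 CPM (SD, n = 4 each). CPM give a gene's counts relative to its library's total after TMM correction. The count of genes past the FDR was 1 with DESeq2 (Tgfbr2), 1 with edgeR's likelihood ratio test (Tgfbr2) and 0 with limma voom, and 2 (Tgfbr2 and Ltbp2) in edgeR without a filter on low counts. With the replicate number as a block in edgeR the count was 1 (Ltbp2). Of all 15388 genes, DESeq2 called 198, the likelihood ratio test 242, limma voom 57 and the block 93, against 81 in the main fit. Without a filter, 338 of 29350 genes were called. The log2 fold change (labelled Flox minus WT) was below 0 for 9 of the 10, with a median of -0.09, where 50.6% of all genes tested were below 0. The 95% confidence intervals of the 10 fold changes lay between -0.50 and 0.10.

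Libraries held 16761763 to 24144272 expected counts, and labelled Flox library 4 was the shallowest. Nrg1, the targeted gene, had a higher mean in labelled Flox than in WT, 6.17 ± 0.611 against 4.87 ± 0.636 CPM (SD, n = 4 each). Its log2 fold change was 0.34 (95% interval 0.08 to 0.60, edgeR unadjusted p 0.0138, FDR 0.311), and the groups overlapped. Every direction given here is thus that between the labels. Gene-level counts cover every cell type and the exons outside the floxed sequence. Xist and Y-linked transcripts (Ddx3y, Eif2s3y, Kdm5d, Uty) each exceeded 20 counts within the same library in 7 of 8 cases, and the labels give no sex. The exception was WT library 4, with Xist at 0.176 CPM. High levels of both are not expected from the single ventricle that the labels state. Whether embryos were pooled or RNA was mixed was not tested. The summed Y-linked level was highest in library 4 of each group, where it reached 171 CPM (WT) and 120 CPM (labelled Flox), against 42.9 to 122 CPM in the other 6 libraries. Labelled Flox libraries 1 to 3 had the 3 lowest Y-linked sums (42.9 to 68.3 CPM) and the 3 highest Xist levels (263 to 327 CPM), so the Y-linked sum is partly confounded with the label, and a fit with it as a further term cannot fully tell them apart. The cardiomyocyte markers summed to 36931 to 40750 CPM in WT and 36542 to 41057 CPM in labelled Flox, and the hepatocyte markers to at most 1.96 CPM in any library. The atrial list summed to 3229 to 4186 CPM and 3144 to 3854 CPM, mostly from Nppa and Myl4, which fetal ventricles also transcribe. Of its other genes, Myl7 was at 231.1 to 297.5 CPM, Bmp10 at 59.9 to 123 CPM and Nr2f2 at 24.5 to 30.4 CPM. Sln was at 3.74 to 10.5 CPM and Nr2f1 at 3.77 to 5.53 CPM. All 7 atrial genes had a log2 fold change below 0, against 50.6% of all genes tested. Bmp10 had the smallest p of them (-0.55, edgeR FDR 0.0606), and 0 passed the FDR.

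**Figure D1:**
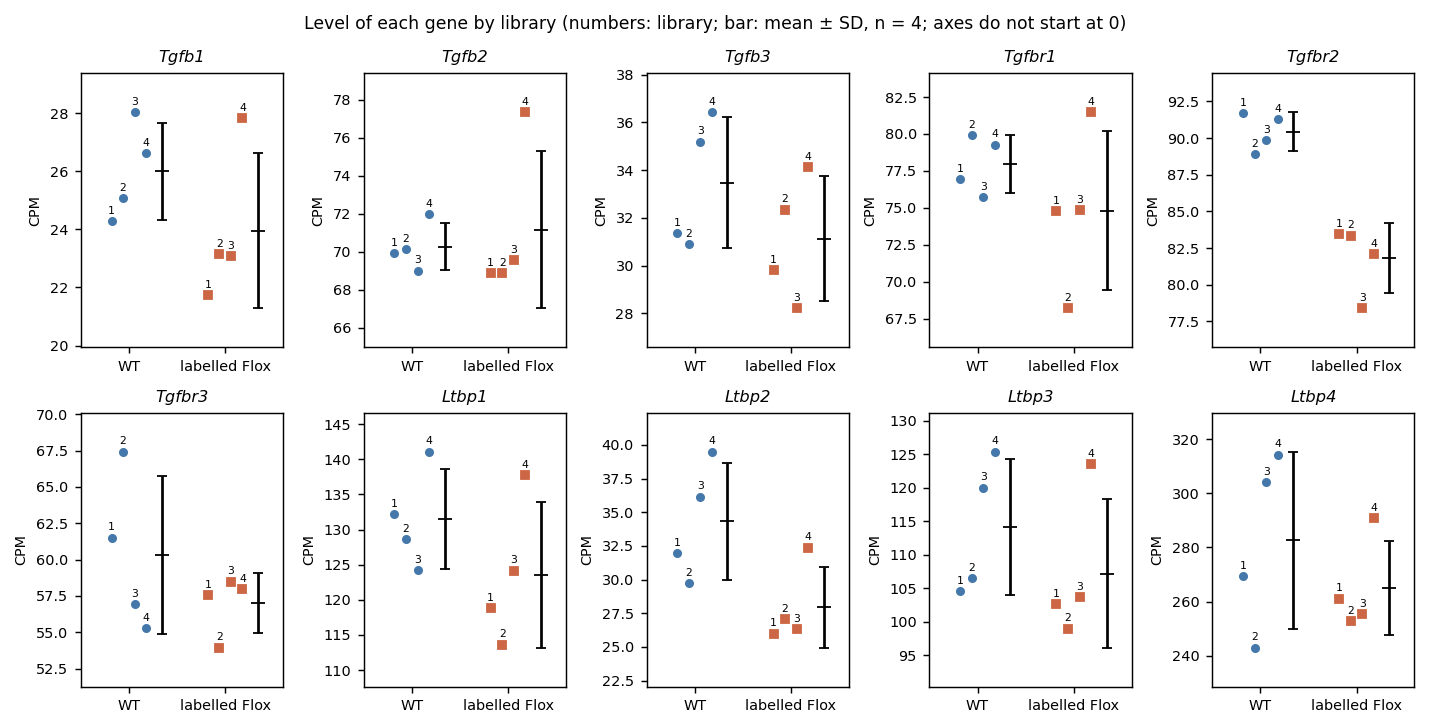
CPM of each gene (y axis, separate scale per panel, not starting at 0) in the 4 WT (circles) and 4 labelled Flox libraries (squares), numbered by library, with the mean ± SD of each group. Only Tgfbr2 has no overlap between the groups, and labelled Flox library 4 is the highest of its group for 8 of the 10 genes.

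Tgfbr2 was the member with the smallest p. It encodes the kinase receptor that binds the ligand first (ENSMUSG00000032440, GRCm38 chromosome 9, 116084293 to 116175360, minus strand). Its level was 91.7, 88.9, 89.9 and 91.3 CPM in WT libraries 1 to 4 and 83.5, 83.4, 78.4 and 82.1 CPM in labelled Flox libraries 1 to 4. All 4 labelled Flox libraries lay below the lowest WT library, a separation that 6.05% of the genes tested had in either direction (2.98% lower and 3.07% higher in labelled Flox). Its log2 fold change was -0.14 (SE 0.0300, 95% interval -0.21 to -0.08), a difference of -9.52%, with an edgeR FDR of 0.0584 and rank 94 by p among all genes tested. The difference was thus larger than the spread between libraries but did not pass over all genes. It was the steadiest of the 10 genes across libraries, with a coefficient of variation of 1.45% in WT and 2.89% in labelled Flox. The WT value is below the counting error of its expected counts, which were 1395 to 2079 per library over both groups.

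Tgfbr2 is known to be transcribed in endothelial cells, whose markers are given beside it. Of 12 such markers, 10 had a log2 fold change below 0 and 6 of these an unadjusted p under 0.05, against 50.6% and 5.41% of all genes tested, while 0 passed the FDR. Their summed level was 1363 to 1421 CPM in WT and 1285 to 1385 CPM in labelled Flox. Kdr (-0.17), Tie1 (-0.17), Esam (-0.15) and Cldn5 (-0.17) had log2 fold changes near that of Tgfbr2, while Cdh5 (0.01) and Plvap (-0.0044) were near 0. Emcn was higher in labelled Flox (0.18, edgeR unadjusted p 0.0206, FDR 0.358). The part of endothelial content in the Tgfbr2 difference was not tested. In bulk tissue, fewer cells of a type and less RNA per cell cannot be told apart.

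Of the other receptors, Tgfbr1 encodes the kinase that passes the signal on (ENSMUSG00000007613, chromosome 4, 47353222 to 47414931, plus strand). It measured 77, 79.9, 75.7 and 79.3 CPM in WT libraries 1 to 4 and, in the same order, 74.8, 68.2, 74.9 and 81.5 CPM in labelled Flox. It lay below every WT library in labelled Flox libraries 1 to 3 and above every WT library in library 4. Between the groups it differed by a log2 fold change of -0.06 (SE 0.0457, 95% interval -0.16 to 0.04, edgeR FDR 0.69). The co-receptor Tgfbr3 (ENSMUSG00000029287, chromosome 5, 107106570 to 107289629, minus strand) measured 61.5, 67.4, 56.9 and 55.3 CPM in WT libraries 1 to 4 and, in the same order, 57.6, 53.9, 58.5 and 58 CPM in labelled Flox. Its values spread more widely in WT than in labelled Flox (coefficient of variation 9.02% against 3.63%). Its log2 fold change was -0.08 (SE 0.0559, 95% interval -0.20 to 0.04, edgeR FDR 0.661).

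To show what lies ahead of the start sites of the members with the smallest p, and of Tgfb2 as the member whose fold change was nearest 0, up to 250 bases upstream of the start are given from RefSeq (GRCm38.p6), 5′ to 3′ along the gene's own strand, ending where the annotated gene begins. Capitals mark the matches, on either strand, to 4 short motifs. The TATA motif was searched as the letters TATAAA. The GC box, a site of Sp1-type factors, was searched as GGGCGG. The motif bound by NF-Y was searched as CCAAT. The SMAD element was searched as CAGAC. The windows are chr9:116175364-116175613 for Tgfbr2, chr12:84876533-84876741 for Ltbp2 and chr1:186705990-186706239 for Tgfb2, all on the minus strand.
Tgfbr2: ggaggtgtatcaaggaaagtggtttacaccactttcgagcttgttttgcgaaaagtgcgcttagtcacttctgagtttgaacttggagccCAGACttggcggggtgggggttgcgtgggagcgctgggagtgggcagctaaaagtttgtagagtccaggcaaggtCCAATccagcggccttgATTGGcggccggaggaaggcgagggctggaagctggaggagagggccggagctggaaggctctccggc
Ltbp2: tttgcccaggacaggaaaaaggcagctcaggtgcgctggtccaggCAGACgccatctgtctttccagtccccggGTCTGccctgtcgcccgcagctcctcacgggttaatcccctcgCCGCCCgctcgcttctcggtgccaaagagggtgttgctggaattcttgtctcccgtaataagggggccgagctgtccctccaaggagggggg
Tgfb2: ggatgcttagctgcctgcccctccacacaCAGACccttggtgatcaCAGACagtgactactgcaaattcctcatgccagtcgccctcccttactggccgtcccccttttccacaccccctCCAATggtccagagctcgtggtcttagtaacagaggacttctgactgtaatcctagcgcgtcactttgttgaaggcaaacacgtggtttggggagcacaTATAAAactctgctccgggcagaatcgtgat
The Tgfbr2 window holds CCAAT letters on both strands and no TATAAA. The Ltbp2 window holds a GC box and CAGAC letters on both strands. Tgfb2 alone, of the 8 members with a RefSeq window, has TATAAA, which starts 31 bases ahead of its start site. Over the first 250 bases upstream, 4 of the 8 held GGGCGG, 5 CCAAT and 5 CAGAC. Of 32817 RefSeq windows of that length, 12.4% held TATAAA, 32.7% GGGCGG, 33.8% CCAAT and 42.2% CAGAC. These are matches of letters, not tested sites.

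Ltbp2 had the largest absolute fold change of the 10 genes. It encodes an LTBP that attaches to microfibrils and, unlike the other LTBPs, is not known to carry latent TGF-beta (ENSMUSG00000002020, chromosome 12, 84783212 to 84876532, minus strand). The WT libraries had 32, 29.7, 36.2 and 39.5 CPM and those labelled Flox 26, 27.1, 26.4 and 32.4 CPM. Labelled Flox libraries 1 to 3 lay below every WT library, and library 4 lay among the WT values. On the log2 scale the difference was -0.30 (SE 0.0889, 95% interval -0.50 to -0.11), or -18.9%, with an edgeR FDR of 0.194. Once the Y-linked sum entered the fit it was -0.11 (95% interval -0.26 to 0.05, FDR 0.679), and without a filter on low counts it was -0.31 (FDR 0.00424). With the replicate number as a block it was -0.29 (FDR 0.0488). Taken as a share of the summed level per length of all LTBPs, Ltbp2 made up 5.75 ± 0.189% in WT and 5.03 ± 0.208% in labelled Flox (SD, n = 4 each). The lowest WT share (5.59%) lay above the highest labelled Flox share (5.24%, library 4), whereas in CPM the groups overlapped. The shares of Ltbp1, Ltbp3 and Ltbp4 overlapped between the groups. How often such ratios separate the groups over other genes was not measured. An antisense gene, D030025P21Rik, covers 9.34% of the exonic bases of Ltbp2 but reached at most 0.354 CPM in any library.

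The other latent binders differed less. Ltbp4, the most abundant (ENSMUSG00000040488, chromosome 7, 27305136 to 27337692, minus strand), is needed for elastic fibre assembly and carries latent TGF-beta 1. It measured 270, 243, 304 and 314 CPM in WT libraries 1 to 4 and, in the same order, 261, 253, 255 and 291 CPM in labelled Flox, all 4 of which lay within the WT range. Its log2 fold change was -0.09 (SE 0.0715, 95% interval -0.25 to 0.06, edgeR FDR 0.708). Ltbp3 (ENSMUSG00000024940, chromosome 19, 5740904 to 5758532, plus strand), which aids secretion of the latent ligand, measured 105, 107, 120 and 125 CPM in WT libraries 1 to 4 and, in the same order, 103, 99, 104 and 123 CPM in labelled Flox. Its log2 fold change was also -0.09 (SE 0.0711, 95% interval -0.25 to 0.06, edgeR FDR 0.706). Ltbp1 (ENSMUSG00000001870, chromosome 17, 75005568 to 75392512, plus strand), the founding member of the family, measured 132, 129, 124 and 141 CPM in WT libraries 1 to 4 and, in the same order, 119, 114, 124 and 138 CPM in labelled Flox. For Ltbp1 and Ltbp3, labelled Flox libraries 1 to 3 lay below the WT minimum and library 4 near the WT maximum. Ltbp1 had a log2 fold change of -0.09 (SE 0.0557, 95% interval -0.21 to 0.03, edgeR FDR 0.614).

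Of the ligands, Tgfb2 had the smallest difference and the narrowest interval of the 3. TGF-beta 2 is made in the cushions and the myocardium beside them (ENSMUSG00000039239, chromosome 1, 186622792 to 186705989, minus strand). Tgfb2 measured 69.9, 70.1, 69 and 72 CPM in WT libraries 1 to 4 and, in the same order, 68.9, 68.9, 69.5 and 77.3 CPM in labelled Flox. Labelled Flox library 4 stood above all the others, and the remaining 7 libraries lay within 68.9 to 72 CPM. For Tgfb2 the log2 fold change was 0.02 (SE 0.0393, 95% interval -0.07 to 0.10, edgeR FDR 0.94), and -0.02 without labelled Flox library 4. Tgfb1 (ENSMUSG00000002603, chromosome 7, 25687002 to 25705077, plus strand), which endothelial and blood cells make, measured 24.3, 25.1, 28 and 26.6 CPM in WT libraries 1 to 4 and, in the same order, 21.7, 23.2, 23.1 and 27.8 CPM in labelled Flox. Its labelled Flox libraries 1 to 3 lay below the WT minimum and library 4 near the WT maximum. For Tgfb1 the log2 fold change was -0.12 (SE 0.073, 95% interval -0.28 to 0.03, edgeR FDR 0.599). Tgfb3 (ENSMUSG00000021253, chromosome 12, 86056745 to 86079041, minus strand), the third isoform, measured 31.4, 30.9, 35.2 and 36.4 CPM in WT libraries 1 to 4 and, in the same order, 29.8, 32.3, 28.2 and 34.1 CPM in labelled Flox. Those ranges overlapped, with a log2 fold change of -0.11 (SE 0.0681, 95% interval -0.25 to 0.04, edgeR FDR 0.633).

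**Figure D2:**
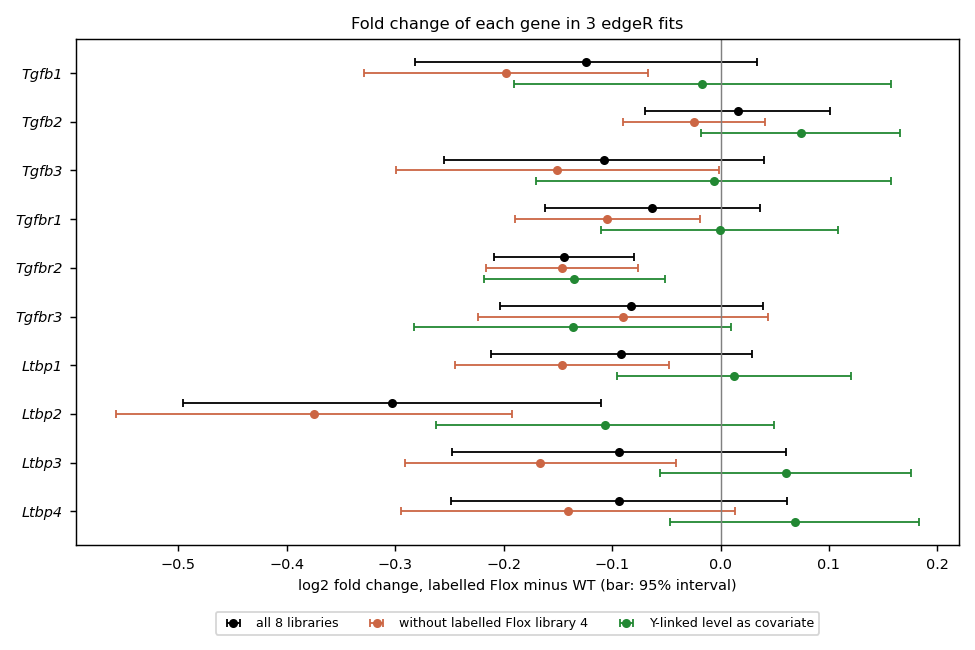
Log2 fold change, labelled Flox minus WT (x axis), of each gene with its 95% interval, in edgeR fits of all 8 libraries, without labelled Flox library 4, and with the Y-linked sum as a further term. Tgfbr2 stays between -0.15 and -0.13 in the 3 fits, while Ltbp2 moves from -0.38 to -0.11.

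The genes were next ordered by level per length (CPM per kb of exon), the scale on which different genes can be compared. Ltbp4 stood highest in WT at 43.7 ± 5.05 (SD, n = 4). Ltbp3 (12.6 ± 1.12), Ltbp1 (12.3 ± 0.669), Tgfb2 (12.1 ± 0.217) and Tgfbr1 (11.9 ± 0.300) followed, and each overlapped its neighbour between libraries. Tgfbr2 came next at 11 ± 0.160 without overlapping either neighbour in WT. Tgfb3 (9.89 ± 0.813) and Tgfbr3 (9.21 ± 0.831) overlapped each other, and so did the lowest pair, Tgfb1 (5.16 ± 0.330) and Ltbp2 (4.19 ± 0.532). In labelled Flox the order was the same but for Tgfb2, which moved from the fourth to the second place among genes whose values overlapped. There Tgfbr2 overlapped Tgfb3, and Tgfb1 and Ltbp2 no longer overlapped. Of the summed ligand level per length in WT, Tgfb2 took 44.7 ± 1.76%, Tgfb3 36.3 ± 1.43% and Tgfb1 19 ± 0.693% (SD, n = 4). These shares were 46.9 ± 1.18%, 35.1 ± 1.33% and 18.1 ± 0.809% in labelled Flox. Exonic lengths are those of all annotated transcripts together, which lowers the level of a gene with unused exons.

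**Figure D3:**
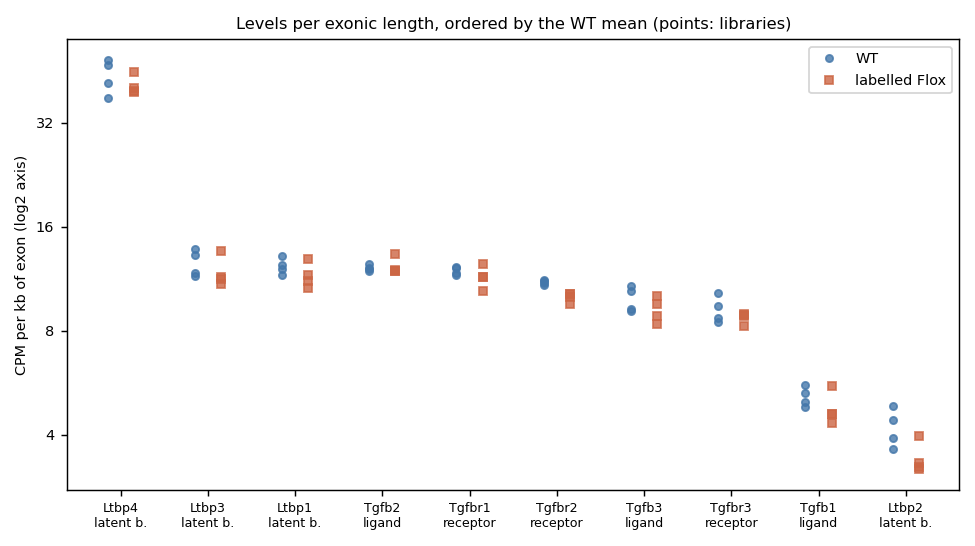
CPM per kb of exon (y axis, log2 scale) of each gene in every WT (circles) and labelled Flox library (squares), ordered by the WT mean. Ltbp4 stands apart at the top, and Tgfb1 and Ltbp2 lie lowest.

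The libraries within a group were not alike for these genes. Labelled Flox library 4 had the highest level of its group for 8 of the 10 genes, the exceptions being Tgfbr2 and Tgfbr3. WT library 4 had the highest level of its group for 6: Tgfb2, Tgfb3 and the 4 LTBPs. These libraries also had the highest Y-linked sum of their groups. Over the 10 genes, the median log2 difference from the WT mean was -0.13, -0.16 and -0.14 in labelled Flox libraries 1 to 3 and 0.06 in library 4, while the median over all genes was at most 0.0033 from 0 in any library. Without labelled Flox library 4, the median log2 fold change of the members was -0.15, all 10 were below 0 (50.1% of all genes in that fit), and 7 had an unadjusted p under 0.05, all lower (12.6% of all genes, 6.55% lower), but 0 passed the FDR in edgeR. That library stands out by its high levels of these same genes, so lower fold changes without it follow from the choice. In each fit without 1 of the other libraries, 9 members were below 0 and 2 or 3 had an unadjusted p under 0.05. With the Y-linked sum as a further term the median was -0.0036, 6 were below 0, 1 (Tgfbr2, lower) had an unadjusted p under 0.05 (9.83% of all genes, 4.85% lower) and 0 passed. In that fit Tgfbr2 was at -0.13 (95% interval -0.22 to -0.05, edgeR FDR 0.266). Leaving out 1 library at a time moved the log2 fold change of Tgfb2 across 0 and those of 7 other members by over 1.5 times. Among the ligands, Tgfb1 moved to -0.20 without labelled Flox 4 and to -0.08 without labelled Flox 1, and Tgfb3 to -0.06 without WT 4 or labelled Flox 3. Among the receptors, Tgfbr1 moved to -0.02 without labelled Flox 2 and to -0.10 without labelled Flox 4, and Tgfbr3 to -0.02 without WT 2 and to -0.05 without labelled Flox 2. Ltbp1 moved to -0.05 without WT 4 or labelled Flox 2 and to -0.15 without labelled Flox 4. Ltbp3 moved to -0.04 without WT 4, to -0.05 without labelled Flox 2 and to -0.17 without labelled Flox 4. Ltbp4 moved to -0.04 without WT 4, to -0.06 without WT 3, to -0.16 without WT 2 and to -0.14 without labelled Flox 4. Tgfbr2 (-0.15 to -0.12) and Ltbp2 (-0.38 to -0.23) moved by less.

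Over the 8 libraries, the protein-coding genes whose log2 CPM was most like that of each member were Arap1 for Tgfb1 (Pearson's r 0.989), Etv3 for Tgfb2 (0.993), Fam120b for Tgfb3 (0.963), S100pbp for Tgfbr1 (0.973) and Lmf2 for Tgfbr2 (0.968). They were Rfc5 for Tgfbr3 (0.988), Unc5b for Ltbp1 (0.947), Baiap2l1 for Ltbp2 (0.983), Fuk for Ltbp3 (0.979) and Tnc for Ltbp4 (0.965). Each is the highest of 10159 candidates over only 8 points that share their libraries, and is given as a description. Among the members themselves the highest r was that of Tgfb1 with Ltbp3 (0.894) and the lowest that of Tgfbr3 with Ltbp4 (-0.48).

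**Figure D4:**
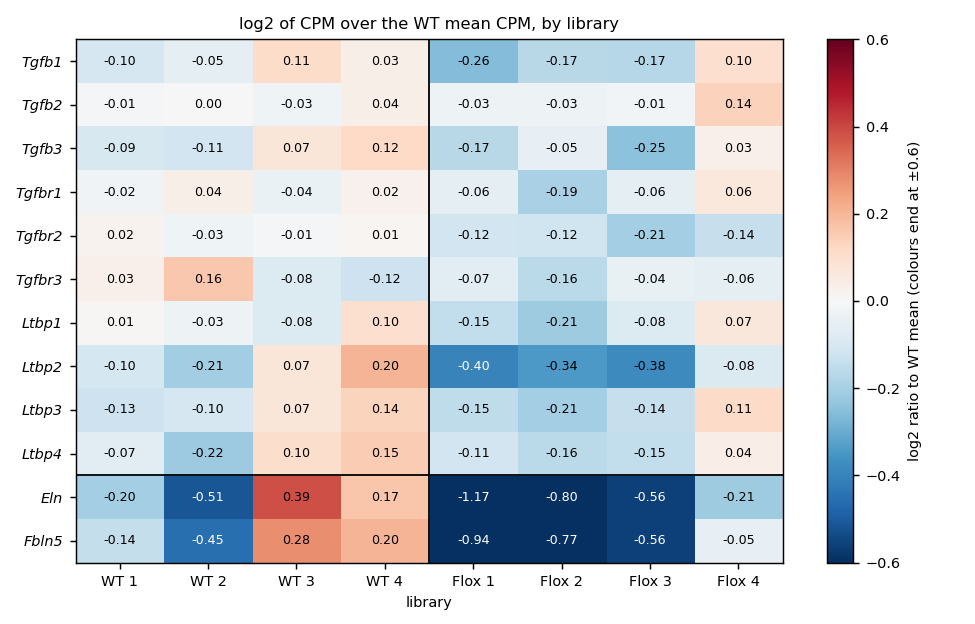
Log2 of CPM over the WT mean CPM for the 10 genes and for Eln and Fbln5 (rows) in each library (columns), with colours ending at 0.6 in either direction. Labelled Flox libraries 1 to 3 are below 0 for all 12 genes, and library 4 is above 0 for 7 of the 10 upper rows.

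The rest of the pathway was examined in 3 lists. Of 26 genes that activate or store the ligand, 24 were tested. In edgeR 0 passed the FDR (3 with DESeq2, 2 with the likelihood ratio test, 0 with limma voom). An unadjusted p under 0.05 was found for 7, all lower in labelled Flox (Itgav, Furin, Fbln1, Eln, Fbln5, Mmp14 and Itgb5), against 5.41% of all genes tested. The list's median log2 fold change was -0.08, and 22 of the 24 were below 0, against 50.6% of all genes tested. Without a filter on low counts 5 passed (Itgav, Furin, Fbln1, Eln and Fbln5). The alpha-v integrin chain Itgav averaged 74.2 ± 3.47 CPM over WT and 61.7 ± 6.46 over labelled Flox (SD, n = 4 each, -0.27, edgeR FDR 0.0765). Furin, the protease that cuts the precursor, was at 138 ± 3.76 and 125 ± 5.46 CPM (SD, n = 4 each, -0.15, edgeR FDR 0.1), without overlap. Without labelled Flox library 4, 4 of the list passed, all lower, against 0.519% of all genes in that fit: Itgav (-0.33, FDR 0.0105), Furin (-0.18, FDR 0.0368), Fbln1 (-0.28, FDR 0.0134) and Fbln5 (-0.75, FDR 0.0435). In each fit without 1 of the other libraries, 0 of the list passed. Thbs1 (0.01), Mmp2 (-0.01), Fbn1 (-0.03) and Itgb8 (-0.02), which also activate or anchor the complex, had FDRs from 0.932 to 0.986.

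Of the elastic fibre genes, Eln and Fbln5 were the most variable of that list. Fbn1 (-0.03), Fbn2 (-0.06), Emilin1 (-0.05) and Lox (-0.05), also fibre genes of the list, had edgeR FDRs from 0.788 to 0.932. Eln (elastin) measured 967, 780, 1456 and 1250 CPM in WT libraries 1 to 4 and, in the same order, 496, 638, 754 and 961 CPM in labelled Flox, a log2 fold change of -0.64 (SE 0.195, edgeR FDR 0.216). Fbln5 (fibulin-5), which links elastin to microfibrils, measured 105, 84.3, 140 and 133 CPM in WT libraries 1 to 4 and, in the same order, 60.1, 68, 78.4 and 112 CPM in labelled Flox, a log2 fold change of -0.55 (SE 0.178, edgeR FDR 0.264). For both genes only labelled Flox library 4 reached into the WT range, as for Ltbp2. With the Y-linked sum as a further term, the log2 fold changes were -0.29 for Eln and -0.16 for Fbln5. With the replicate number as a block, both passed the FDR (0.0313 for Eln and 0.0341 for Fbln5). Fbln1 (fibulin-1) was at 149 ± 5.07 and 129 ± 14.1 CPM (SD, n = 4 each, -0.21, edgeR FDR 0.184). Smooth muscle and fibroblast markers, whose cells make these fibres, are given beside them. Mural and smooth muscle markers summed to 1937 to 2045 CPM in WT and 2023 to 2111 CPM in labelled Flox. Of these, 7 of 9 were below 0, against 50.6% of all genes tested. Most of that sum is Acta2 (1257 to 1472 CPM in any library), whose log2 fold change was 0.12. Of the 9, 3 had an unadjusted p under 0.05 and were lower in labelled Flox, against 5.41% of all genes tested: Kcnj8 (-0.24, edgeR FDR 0.0867, without overlap), Rgs5 (-0.26, FDR 0.282) and Pdgfrb (-0.15, FDR 0.254). Another 1, Acta2, was higher with such a p (edgeR unadjusted p 0.00423, FDR 0.184), against 5.13% of all genes tested. Myh11 was at -0.42 (FDR 0.55). Fibroblast and mesenchyme markers summed to 5545 to 6540 and 5351 to 6474 CPM, with 9 of 11 below 0, against 50.6% of all genes tested. Their part in the differences of the LTBPs, Eln and Fbln5 was not tested.

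Receptor-proximal and SMAD genes stayed close to 0. All 26 were tested, with a median log2 fold change of -0.01 and 0 past the FDR in edgeR, DESeq2, limma voom or the likelihood ratio test. In edgeR 3 had an unadjusted p under 0.05, against 10.5% of all genes tested. These were the inhibitory SMAD Smad6 (0.18, edgeR FDR 0.304), the focal adhesion adaptor Tgfb1i1 (-0.08, FDR 0.323) and the receptor-associated protein Tgfbrap1 (-0.14, FDR 0.366). Tgfb1i1 averaged 152 ± 0.631 CPM over WT and 144 ± 2.22 over labelled Flox (SD, n = 4 each), without overlap. Fkbp1a (-0.07, FDR 0.508) and Smad1 (-0.09, FDR 0.545) followed by p. The signal carriers Smad2 (-0.01), Smad3 (-0.01) and Smad4 (0.04), the endothelial co-receptor Eng (-0.01) and the feedback inhibitor Smad7 (-0.0034) had FDRs from 0.743 to 0.993.

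Genes known as TGF-beta targets showed no common direction. All 25 were tested, 6 of which also stand in the other lists. Their median log2 fold change was -0.0034, and 14 were below 0, against 50.6% of all genes tested. In edgeR 0 passed the FDR (2 with DESeq2, 0 with the likelihood ratio test, 0 with limma voom). An unadjusted p under 0.05 was found for 3, against 10.5% of all genes tested. The smooth muscle actin Acta2 averaged 1308 ± 46.8 CPM over WT and 1423 ± 55.4 over labelled Flox (SD, n = 4 each, 0.12, edgeR FDR 0.184). The matrix protein gene Postn was at 760 ± 56.3 and 672 ± 42.5 CPM (SD, n = 4 each, -0.18, edgeR FDR 0.225). Angptl4, a secreted lipase inhibitor, was at 8.68 ± 0.616 and 10.4 ± 0.892 CPM (SD, n = 4 each, 0.25, edgeR FDR 0.306). Ccn1 (0.11, FDR 0.649) and Tagln (-0.10, FDR 0.654) came next. Ccn2 (0.05), Pmepa1 (-0.05) and Skil (0.07), among the direct SMAD targets in many cells, had FDRs from 0.69 to 0.833.

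**Figure D5:**
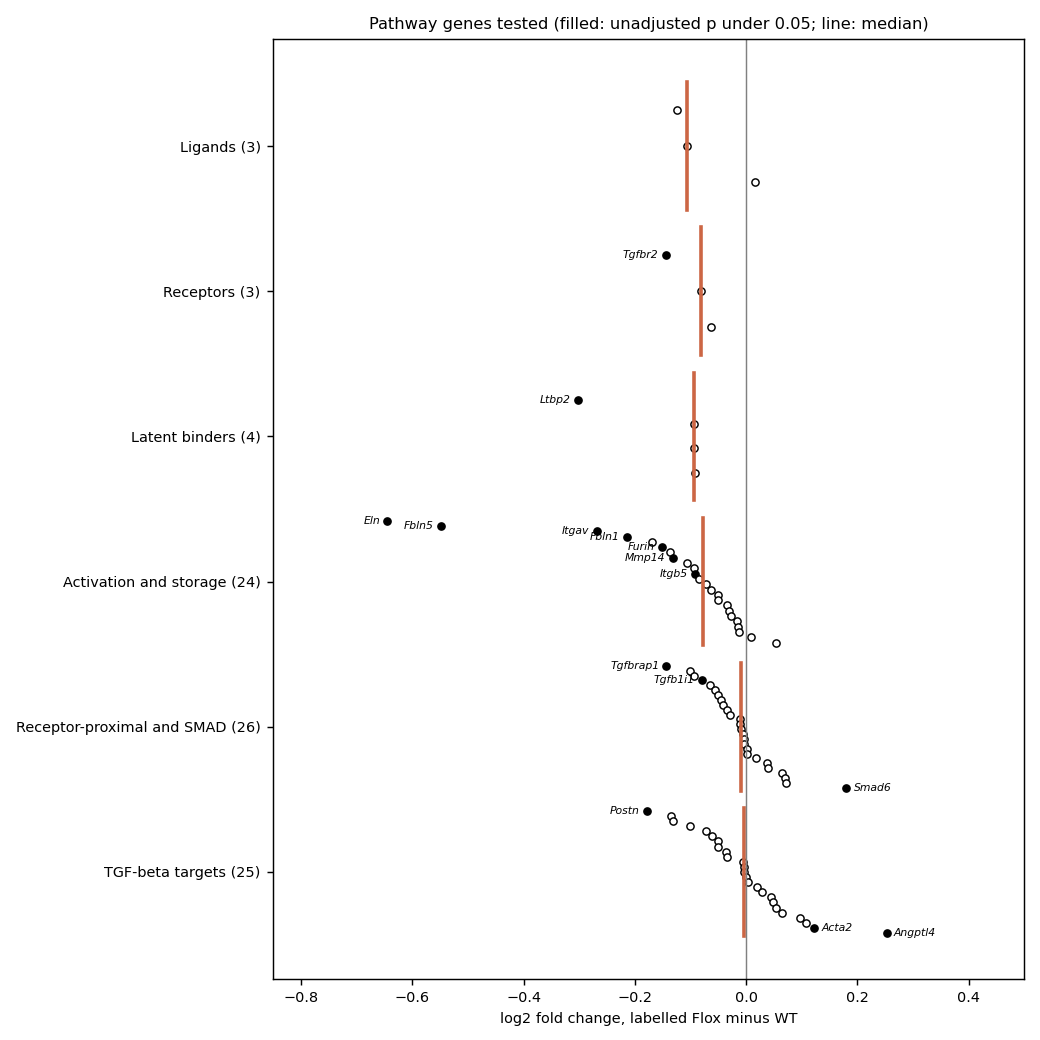
Log2 fold change, labelled Flox minus WT (x axis), of every tested gene of the 3 member groups and the 3 pathway lists (rows, with the number tested). Filled points had an unadjusted p under 0.05 and vertical lines are medians, which lie at -0.08 for activation and storage and near 0 for the lower lists.

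The remaining marker lists did not pass for any gene but 1. Nkx2-5, of the 10 cardiomyocyte markers, was higher (0.21, edgeR FDR 0.0194). Epicardial markers summed to 166 to 176 CPM in WT and 175 to 197 CPM in labelled Flox, macrophage and leukocyte markers to 102 to 144 and 112 to 164 CPM. Erythroid markers summed to 4268 to 9378 and 5849 to 9976 CPM, and megakaryocyte and platelet markers, from cells rich in TGF-beta 1, to 9.94 to 13.2 and 11 to 12.7 CPM. Labelled Flox library 4 had the highest endothelial, epicardial, macrophage, erythroid, atrial, platelet and fibroblast sums of its group and the lowest cardiomyocyte and mural sums. The mural sum is mostly Acta2, which was lowest in that library, as was Cspg4. Tagln, Cnn1, Pdgfrb, Rgs5 and Notch3 were highest of the group there, and Myh11 and Kcnj8 lay in between. The part of these contents in its higher levels of the 8 members was not tested.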

How the data were processed

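Libraries of poly(A) RNA from E15.5 mouse ventricles were prepared with a directional kit and read from a single end. Deposited values are expected counts per gene, which the authors estimated with RSEM 1.3.1 after cutadapt trimming, on GRCm38 by the submitters' processing notes. Neither the aligner nor the strand setting of the counting is given in the sources used here. Expected counts divide reads that match several genes, and those of Tgfb1, Tgfbr2, Ltbp1, Ltbp2 and Ltbp3 were not whole in 100% of libraries. Symbols, positions and lengths came from GENCODE M21 (53360 of 53465 identifiers matched), sequences from RefSeq.

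Expected counts were rounded, filtered with filterByExpr (15388 genes), TMM-scaled and compared with edgeR 4.0.16 (glmQLFit, glmQLFTest, group as the only term, two-sided) in R 4.3.3, with p-values adjusted by Benjamini-Hochberg across the tested genes and a threshold of 0.05. SEs were derived from the F statistic, with 95% intervals on its t scale. The members held 430 to 7154 expected counts per library, a counting error of 4.82 to 1.18%. Every pair of libraries differed by more than sampling noise (lowest ratio of chi-square to its degrees of freedom 3.04). The labels give 1 ventricle per replicate but do not name the embryos, and 7 of 8 libraries held Xist and Y-linked RNA together. A library may thus not stand for 1 embryo. The p-values measure the spread between these libraries, which may be partly technical. The fits were tested before use on simulated counts with planted log2 changes of 0.5 and 1. The quasi-likelihood test recovered 61 of 100 changes of 0.5, and 8 of its 156 calls were false. Of 179 calls by the likelihood ratio test, 21 were false. Changes as small as those of the members were not simulated.

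The members and all lists (activation and storage, receptor-proximal and SMAD, targets, and 10 cell type lists) were chosen with earlier results of these data known. Named were the 10 members, Nrg1, the 5 genes of smallest p in each pathway list and, for each member, the most alike gene (mean log2 CPM of at least 3). Other genes given with values were chosen after these were seen. Tried besides were scaling by RLE, by the upper quartile or by totals, a fit without filter, a minimum CPM of 1 in 4 or more libraries, DESeq2 1.42.0, limma 3.58.1 (voom), the likelihood ratio test, each library left out, the replicate number as a block, the Y-linked sum as a further term, and a fit after removing Xist, Y-linked, mitochondrial and globin genes.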

Additional observations from a re-analysis of the deposited data

Results flagged for a closer look

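Among 52 groups of 4 values (the 10 members, Nrg1 and the 15 named pathway genes, in each group), 2 held a library far from the other 3 by Dixon's criterion, where chance gives about 2.6. Both concern labelled Flox library 4. Tgfb2 was at 77.3 CPM there, against 68.9 to 69.5 CPM in the other 3 of the group, and Ltbp2 was at 32.4 CPM, against 26 to 27.1 CPM.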

How the results depend on the processing

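The cause of these shifts was not tested. Over the 19 other fits, the 10 members gave 190 values, of which 181 kept direction and side of the FDR, 5 came to pass it and 4 changed sign. The sign changes were those of Tgfb2 without labelled Flox library 4 (-0.024, where the fits without 1 library reached 0.033 and that with the Y-linked covariate 0.074) and, with the Y-linked covariate, of Ltbp1 (0.013), Ltbp3 (0.060) and Ltbp4 (0.068). Tgfbr2 ranged from -0.15 to -0.12 and passed without a filter, with DESeq2 and with the likelihood ratio test. Ltbp2 ranged from -0.38 to -0.11 and passed without a filter and with the replicate block (FDR 0.0488). Members past the FDR numbered 2 without a filter, 1 with DESeq2, 1 with the likelihood ratio test, 1 with the replicate block and 0 in every fit without 1 library, and 2 had an unadjusted p under 0.05. Activation and storage genes past it numbered 5 without a filter, 3 with DESeq2, 2 with the likelihood ratio test, 2 with the replicate block (Eln, FDR 0.0313, and Fbln5, FDR 0.0341) and 0 to 4 without 1 library, the 4 without labelled Flox library 4, against 7 at an unadjusted p under 0.05. Receptor-proximal and SMAD genes numbered 3 at an unadjusted p under 0.05. Target genes numbered 1 without a filter, 2 with DESeq2 and 3 at an unadjusted p under 0.05. The 15 named pathway genes kept their sign in all 285 values and came to pass in 19. Nrg1 stayed higher (0.27 to 0.40) without passing. Its unadjusted p was under 0.05 in each fit but that with the Y-linked covariate (edgeR unadjusted p 0.0729). Over all genes, 81 were called, 338 without a filter, 198 with DESeq2, 242 with the likelihood ratio test, 16 with the Y-linked covariate and 11 to 142 without 1 library. The deviations of same-numbered libraries correlated across genes at 0.0998, 0.0474, 0.0447 and 0.121, against -0.0877 to 0.0195 for pairs of unlike number. Each library correlated best with its own number. The labels do not say what libraries of the same number share, so the block is given as an alternative to the main fit. With the replicate block 93 genes were called. Counting error (at most 4.82% for a member) is smaller than the spread between libraries for most members. In the main fit the intervals of Tgfbr2 and Ltbp2 lay below 0, although neither gene passed the FDR over all genes. The intervals of the other members included 0, so their differences cannot be told from 0 here.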
